A study of Mus musculus with 8 samples.

Results

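The genes described here encode the proteins that define and carry out pre-mRNA splicing: SR proteins, heterogeneous nuclear ribonucleoproteins (hnRNPs), the core proteins of the small nuclear ribonucleoproteins (snRNPs) and the U2-associated factors. They were chosen by name alone, as every non-control probe whose array gene name begins with Sfrs, Srsf, Hnrnp, Hnrp, Snrp, Sf3a, Sf3b or U2af. This gave 126 of the 41174 probes on the array, which belong to 60 genes. The SR class held 16 genes, the hnRNP class 20, the snRNP class 13 and the class of U2 factors 11. Classes follow the array names, so the SR class also holds genes now named Clasrp, Scaf4, Scaf11, Sfswap, Srek1, Sugp2 and Tra2b. The whole class is called SR proteins below for short. Of the 126 probes, 115 reached the signal needed for testing, and 59 of the 60 genes were tested. Hnrnpul2 was the gene that did not reach it.

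Splicing removes introns in the spliceosome, which assembles from snRNPs on each new transcript. SR proteins bind exonic enhancers and recruit the U1 snRNP and the U2 auxiliary factor to splice sites, whereas many hnRNPs bind silencers and oppose them, so that the balance between both classes sets exon choice. Sm proteins form the ring at the core of most spliceosomal snRNPs, SF3A and SF3B anchor the U2 snRNP at the branch point, and U2AF reads the 3′ splice site. Many SR and hnRNP genes limit their own expression through poison exons, whose inclusion sends the transcript to nonsense-mediated decay.

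Stromal cells of BALB/c lymph nodes, the fibroblast-like cells that scaffold the node, were cultured on plates. At 80% confluence or above they were transfected by lipofection with 400 pmol of an siRNA against Eif4g3 or of a control siRNA, with 7 plates for each siRNA, and harvested 48 h later. Eif4g3 encodes eIF4G3, a scaffold of the translation initiation factor that binds the mRNA cap. RNA was taken from whole lysate (total RNA) and from the heavy end of a sucrose gradient, where mRNAs with many ribosomes sediment (heavy polysome RNA), for which the cells were pooled. Each of the 4 total RNA arrays and 4 heavy polysome arrays, Agilent 2-colour 4x44K arrays, compared 200 ng of RNA of Eif4g3 siRNA cells in Cy5 with 200 ng of RNA of control siRNA cells in Cy3. The values below are the log2 ratio of Cy5 over Cy3, that is of Eif4g3 over control siRNA, in the order of arrays 1 to 4. Since equal masses of RNA were labelled, they are relative to the RNA population, and in bulk RNA fewer cells of a type and less RNA per cell cannot be told apart. Dyes were not swapped, so dye bias of a probe and siRNA effect cannot be told apart within a fraction, and the labels do not say whether the 4 replicates came from separate cultures.

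The targeted gene was lower on every array. The brighter of its 2 probes gave log2 ratios of -2.48, -1.81, -1.94 and -2.05 in total RNA, against -3.16, -2.24, -2.43 and -1.999 in heavy polysome RNA. All 11 listed markers of fibroblastic stroma, among them Pdpn, Pdgfra and Col1a1, reached the signal for testing, against 1 of 6 of endothelium and 2 of 5 of lymphocytes. Of 8 macrophage markers 4 were measured, and their median ratio lay between -0.94 and -0.07 on the 8 arrays. Their part in the values below was not tested. Over all tested genes, each array's mean correlation with the other 3 of the same fraction ran from 0.289 on heavy polysome array 1 to 0.566 on heavy polysome array 4. Heavy polysome arrays 2 and 4, which lay on different slides, correlated with each other at 0.883 over all genes and at 0.929 over the 59 members. The arrays also fell into 2 positions on their slides: total RNA arrays 1 and 3 and heavy polysome arrays 2 and 4 lay at position 3, the others at position 1. Values within each position are given where a gene was called. The split by position was made after the data were seen, and its p-values are no further support for a call.

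Few splicing factor genes passed the test. Hnrnph1, which encodes an hnRNP that binds runs of G and can both enhance and silence exons, rose 2.05-fold in total and 2.16-fold in heavy polysome RNA. Its relative Hnrnph3 rose in heavy polysome RNA, and Srsf5, an SR protein that activates exons, fell in both fractions. In total RNA 2 of 59 members passed an adjusted p of 0.05 in limma with Benjamini-Hochberg adjustment over 14457 genes (3.39%), and over all genes 633 did (4.38%). In heavy polysome RNA 3 of 59 passed (5.08%), against 1289 of all genes (8.92%). At an unadjusted p under 0.05 the counts were 12 (20.3%) and 14 (23.7%), against 22.1% and 25.4% of all genes. By direction, 1 member was higher and 1 lower in total RNA, against 1.67% and 2.7% of all genes, and 2 were higher and 1 lower in heavy polysome RNA, against 4.88% and 4.04%. The share of members called was thus near or below that of all genes in either fraction. The p-values rest on a spread pooled over both fractions. With each fraction fitted alone, the calls of Hnrnph1, Hnrnph3 and Srsf5 in heavy polysome RNA were lost. The same sign on all 4 arrays was shown by 20 members in total RNA (33.9%, against 34.8% of all genes) and by 15 in heavy polysome RNA (25.4%, against 31.9%).

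**Figure D1:**
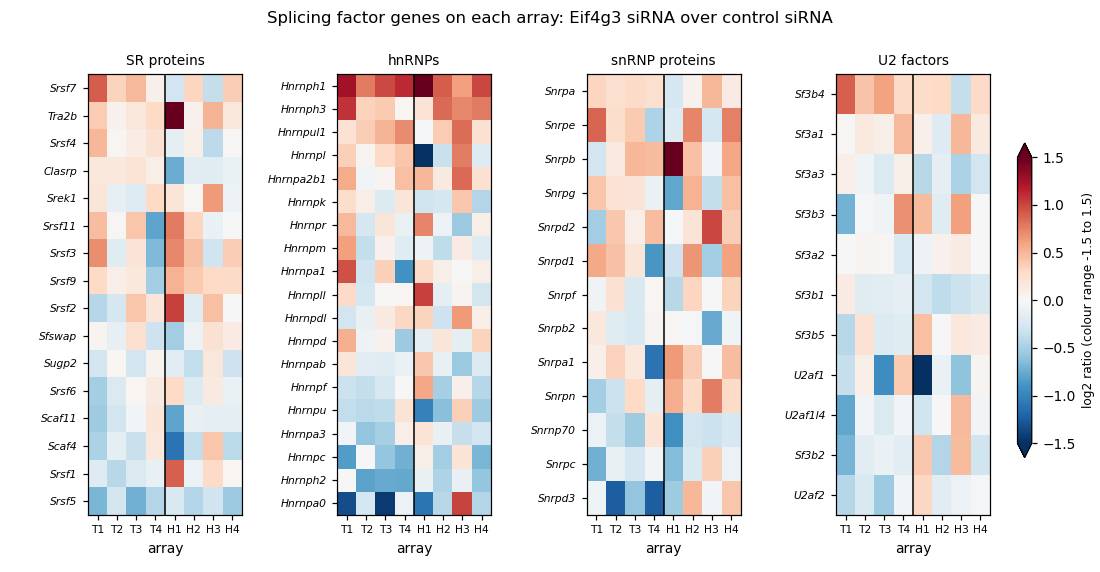
Log2 ratio of Eif4g3 siRNA over control siRNA (colour) of the 59 tested genes (rows, ordered within each class by mean in total RNA) on the total RNA arrays T1 to T4 and the heavy polysome arrays H1 to H4 (columns). Hnrnph1 is above 0 on all 8 arrays and Srsf5 below 0 on all 8, while most other rows mix both colours and heavy polysome array 1 holds most of the strongest colours.

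Hnrnph1 had log2 ratios of 1.26, 0.77, 0.99 and 1.12 in total RNA against 1.92, 0.91, 0.62 and 1.00 in heavy polysome RNA. It was the highest of the 59 members in both fractions, and every array was above 0, although heavy polysome array 1 lay apart from the other 3 of its fraction. The mean was 1.04 ± 0.21 in total RNA (SD, n = 4, 2.05-fold, limma adjusted p = 0.019) and 1.11 ± 0.56 in heavy polysome RNA (SD, n = 4, 2.16-fold, limma adjusted p = 0.0079). Both p-values use the spread pooled over the fractions, and with heavy polysome RNA fitted alone the call there was lost. At slide position 3 Hnrnph1 averaged 1.13 in total and 0.95 in heavy polysome RNA, with limma adjusted p-values of 0.0034 and 0.0046. These rest on 2 arrays a fraction, of which the heavy polysome pair was closely alike, and on a split made after the data were seen. At position 1 Hnrnph1 averaged 0.95 and 1.27, which with 2 arrays a fraction gave limma adjusted p-values of 0.6 and 0.24. Without any 1 of the total RNA arrays the total RNA value stayed between 0.96 and 1.13, and the limma adjusted p lay between 0.0596 and 0.0846. With median centring in place of loess the total RNA mean was 0.08, a scaling under which the median of all genes in total RNA moved from -0.04 to -0.78.

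Hnrnph3, a shorter relative of Hnrnph1, had log2 ratios of 1.09, 0.34, 0.39 and 0.03 in total RNA against 0.20, 0.85, 0.72 and 0.78 in heavy polysome RNA. All 8 were above 0, with total RNA array 1 highest and total RNA array 4 near 0. The mean was 0.46 ± 0.44 in total RNA (SD, n = 4, limma adjusted p = 0.14) and 0.64 ± 0.30 in heavy polysome RNA (SD, n = 4, 1.56-fold, limma adjusted p = 0.043). The heavy polysome mean was 0.82 at position 3 (limma adjusted p = 0.017) and 0.46 at position 1 (limma adjusted p = 0.39). With the alike heavy polysome arrays 2 and 4 counted as 1 sample it was 0.58 with a limma adjusted p of 0.16, and under median centring its total RNA mean turned to -0.49.

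Hnrnph2, which encodes a protein very like that of Hnrnph1, lay on the other side of 0. Its log2 ratios were 0.0014, -0.80, -0.76 and -0.76 in total RNA against -0.11, -0.47, -0.11 and -0.58 in heavy polysome RNA. Total RNA arrays 2 to 4 were alike and total RNA array 1 stood apart at 0. The mean was -0.58 ± 0.39 in total RNA (SD, n = 4, limma adjusted p = 0.056) and -0.32 ± 0.24 in heavy polysome RNA (SD, n = 4, limma adjusted p = 0.21), so neither passed the threshold, and without total RNA array 1 the first was -0.77 with a limma adjusted p of 0.04. The values of Hnrnph1 and Hnrnph2 did not overlap in either fraction, the lowest ratio of Hnrnph1 being 0.62 and the highest of Hnrnph2 0.00. In each fraction Hnrnph1 had the highest mean of the hnRNPs and Hnrnph2 was among the 2 lowest. A gap between the values of such a pair is no separate result. Each of these genes had a single probe, and paralogs of this similarity may share hybridisation, which was not tested.

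Srsf5 had log2 ratios of -0.69, -0.28, -0.72 and -0.43 in total RNA against -0.23, -0.43, -0.30 and -0.55 in heavy polysome RNA. All 8 arrays were below 0 and their ranges overlapped. The mean was -0.53 ± 0.21 in total RNA (SD, n = 4, 1.44-fold lower, limma adjusted p = 0.024) and -0.38 ± 0.14 in heavy polysome RNA (SD, n = 4, 1.3-fold lower, limma adjusted p = 0.048). Position 3 gave -0.70 and -0.49, with limma adjusted p-values of 0.0055 and 0.014, and position 1 gave -0.36 and -0.27, with 0.62 and 0.52. The call did not hold with the signals processed by the scanner software, where the means were -0.45 and -0.28 with limma adjusted p-values of 0.12 and 0.28, nor in total RNA without any 1 of its arrays (limma adjusted p from 0.0536 to 0.123). In heavy polysome RNA 6 of 22 alternatives kept the call. Without any 1 of the heavy polysome arrays the limma adjusted p lay between 0.0513 and 0.194, and with heavy polysome arrays 2 and 4 as 1 sample the mean was -0.34 (limma adjusted p = 0.17).

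**Figure D2:**
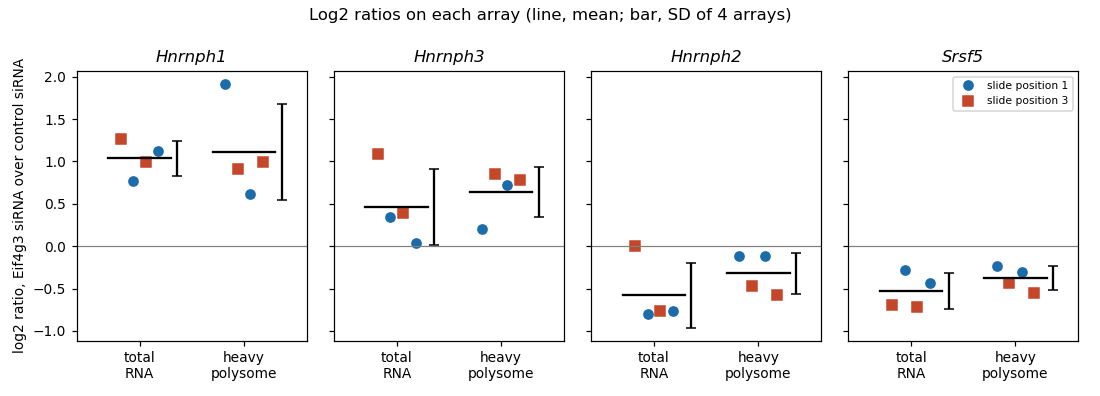
Log2 ratio of Eif4g3 siRNA over control siRNA (vertical axis) on each array for Hnrnph1, Hnrnph3, Hnrnph2 and Srsf5, by fraction and by position of the array on its slide (symbols), with the mean of 4 arrays (line) and its SD (bar). Hnrnph1 and Hnrnph3 lie above 0 on all 8 arrays, Srsf5 lies below 0 on all 8, and Hnrnph2 is at 0 on total RNA array 1 and below 0 on the other 7.

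The probes of the called genes lie, on the mm8 build that the file headers name, at chr11:50229522-50229581 on the + strand for Hnrnph1, chr10:62410807-62410866 on the - strand for Hnrnph3 and chr12:81865567-81866216 on the + strand for Srsf5. The Srsf5 coordinates cover 650 bases, whereas those of 102 of the 126 member probes cover 60. It is 1 of 19 member probes whose coordinates cover more, as happens where a probe joins separate stretches of a gene, and its values then hold for transcripts in which they are joined. Start regions of the 3 genes are shown because 2 of them rose and 1 fell. They are the 150 bases before the outermost annotated start in RefSeq on GRCm38.p6, at chr11:50376840-50376989 (+ strand), chr10:63023850-63023999 (- strand) and chr12:80945349-80945498 (+ strand), and read 5′ to 3′ along each gene. Capitals mark matches on either strand to CCAAT, the GC box GGGCGG, the ETS core CCGGAA and the cAMP response element TGACGTCA.
Hnrnph1: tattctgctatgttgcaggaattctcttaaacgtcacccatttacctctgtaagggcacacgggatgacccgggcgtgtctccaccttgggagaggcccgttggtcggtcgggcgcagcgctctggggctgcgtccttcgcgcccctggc
Hnrnph3: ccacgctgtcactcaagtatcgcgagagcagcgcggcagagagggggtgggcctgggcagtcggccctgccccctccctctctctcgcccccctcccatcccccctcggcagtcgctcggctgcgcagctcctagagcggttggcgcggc
Srsf5: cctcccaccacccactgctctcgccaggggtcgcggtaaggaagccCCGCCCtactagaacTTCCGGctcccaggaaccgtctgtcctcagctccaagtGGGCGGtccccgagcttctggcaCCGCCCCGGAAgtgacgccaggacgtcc
The Srsf5 window held 3 matches to the GC box and 2 to the ETS core, the last of each sharing a base. The windows of Hnrnph1, which has 5 annotated starts, and Hnrnph3 held none of the 4 motifs. Over all 32851 start windows of the table, 28.6% held the GC box, 9.23% the ETS core, 24.5% CCAAT and 1.36% the cAMP response element. Over the 74 windows of 53 members these shares were 51.4%, 29.7%, 32.4% and 2.7%, and the median GC content was 62.3%, against 54% over all. A match is a run of letters and was not tested as a binding site.

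Among the other hnRNPs no gene passed in either fraction, and the widest values were on both sides of 0. Hnrnpa0, an hnRNP of the A/B group that binds AU-rich mRNA, had log2 ratios of -1.33, -0.26, -1.43 and -0.09 in total RNA as set against -1.09, -0.41, 1.01 and -0.44 in heavy polysome RNA. Its mean was -0.78 ± 0.70 in total RNA (SD, n = 4, limma adjusted p = 0.2), with arrays 1 and 3, both at slide position 3, far below arrays 2 and 4. Hnrnpc, which coats U-rich stretches of nascent transcripts, had -0.84, -0.01, -0.58 and -0.72 in total RNA, all below 0, and 0.08, -0.52, 0.21 and -0.69 in heavy polysome RNA (limma adjusted p = 0.11 and 0.46). Hnrnpul1, a nuclear RNA-binding relative of Hnrnpu, had 0.22, 0.37, 0.51 and 0.71 in total RNA against -0.03, 0.38, 0.84 and 0.23 in heavy polysome RNA. It was above 0 on all total RNA arrays, with a mean of 0.45 ± 0.21 (SD, n = 4, limma adjusted p = 0.094). Hnrnpu, a scaffold protein of the nuclear matrix, had -0.37, -0.40, -0.39 and 0.21 in total RNA against -1.02, -0.62, 0.36 and -0.53 in heavy polysome RNA, where its mean was -0.45 ± 0.58 (SD, n = 4, limma adjusted p = 0.18) and array 3 was of the other sign.

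Several hnRNPs were chosen for their roles. Hnrnpa1, a silencer of exons, had log2 ratios of 0.95, -0.29, 0.36 and -0.91 in total RNA against 0.29, 0.08, 0.002 and 0.08 in heavy polysome RNA. The heavy polysome arrays were all above 0, from 0.002 to 0.29, while its total RNA arrays ran from -0.91 to 0.95, so that the mean of 0.03 ± 0.81 (SD, n = 4) was small beside the spread. Hnrnpa2b1, which also sorts RNA into granules and vesicles, had 0.56, -0.04, 0.04 and 0.45 in total RNA against 0.50, 0.13, 0.84 and 0.23 in heavy polysome RNA. It was above 0 on all heavy polysome arrays, with a mean of 0.43 ± 0.32 (SD, n = 4, limma adjusted p = 0.094). Hnrnpd, also known as AUF1 and a regulator of the decay of AU-rich mRNA, had 0.54, -0.07, 0.06 and -0.55 and -0.13, 0.19, -0.14 and 0.33, with both signs in each fraction. Hnrnpk, which binds C-rich RNA and DNA, had 0.26, 0.10, -0.20 and 0.19 and -0.30, -0.27, 0.40 and -0.44, again with both signs.

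Hnrnpl, which binds CA repeats, had log2 ratios of 0.36, 0.04, 0.30 and 0.42 in total RNA as set against -1.48, -0.33, 0.77 and -0.19 in heavy polysome RNA. All total RNA arrays were above 0, while heavy polysome arrays ran from -1.48 to 0.77, the widest range of the class in that fraction. Hnrnpm, a splicing regulator that binds GU-rich RNA, had 0.61, -0.36, 0.07 and -0.19 and -0.08, -0.38, 0.13 and -0.19. Its means were 0.03 and -0.13, each smaller than its SD. The remaining tested hnRNPs, Hnrnpa3, Hnrnpab, Hnrnpdl, Hnrnpf, Hnrnpll and Hnrnpr, had means between -0.26 and 0.08 in total RNA and between -0.13 and 0.19 in heavy polysome RNA, none past the threshold.

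Of the SR class, Srsf5 alone was called, in either fraction. Srsf1, the prototype SR protein, which also acts in translation and mRNA export, had log2 ratios of -0.19, -0.41, -0.21 and -0.11 in total RNA against 0.90, -0.09, 0.29 and 0.03 in heavy polysome RNA. The total RNA arrays were all below 0 and all below the heavy polysome arrays, of which array 2 came nearest. Srsf7, an SR protein with a zinc knuckle, had 0.91, 0.33, 0.49 and 0.07 in total RNA, all above 0, and -0.29, 0.32, -0.36 and 0.36 in heavy polysome RNA, with arrays 1 and 3 below 0 and arrays 2 and 4 above. Its total RNA mean was 0.45 ± 0.35 (SD, n = 4, limma adjusted p = 0.14), but the means of its 3 tested probes ran from -0.35 to 0.45. Tra2b, an SR-like protein that binds GA-rich enhancers, had 0.38, 0.07, 0.17 and 0.30 in total RNA against 1.71, 0.07, 0.50 and 0.17 in heavy polysome RNA, all above 0. Its heavy polysome mean of 0.61 ± 0.75 (SD, n = 4, limma adjusted p = 0.12) was led by array 1.

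Srsf2, also known as SC35 and found in nuclear speckles, had log2 ratios of -0.42, -0.26, 0.42 and 0.18 in total RNA against 1.02, -0.18, 0.46 and -0.005 in heavy polysome RNA. Both signs occurred in each fraction. Srsf3, the smallest SR protein, had 0.70, -0.18, 0.20 and -0.67 and 0.72, 0.44, -0.30 and 0.37, and Srsf6 had -0.51, -0.22, 0.03 and 0.14 and 0.30, -0.21, 0.14 and -0.10. Neither gene kept a sign within a fraction. Srsf9 had 0.52, 0.39, 0.30 and 0.29 in heavy polysome RNA, with a narrow spread and a mean of 0.37 ± 0.11 (SD, n = 4, limma adjusted p = 0.1), and 0.30, 0.09, 0.16 and -0.51 in total RNA. Scaf4, an SR-like factor that binds the tail of RNA polymerase II, had -0.47, -0.15, -0.33 and 0.15 in total RNA against -1.10, -0.37, 0.42 and -0.41 in heavy polysome RNA, with a mean of -0.37 ± 0.62 in the latter (SD, n = 4, limma adjusted p = 0.3). Clasrp, an SR-rich protein that binds the kinase Clk4, had 0.17, 0.15, 0.21 and 0.09 in total RNA, all above 0, and -0.74, -0.17, -0.19 and -0.10 in heavy polysome RNA, all below. Srsf10 had no probe under the naming rule.

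None of the 13 snRNP genes was called in limma in either fraction, and at an unadjusted p under 0.05 2 passed in total RNA (15.4%, against 22.1% of all genes) and 3 in heavy polysome RNA (23.1%, against 25.4%). Snrpd3, an Sm ring protein, had the lowest mean of all members in total RNA. Its log2 ratios were -0.06, -1.24, -0.60 and -1.24 in total RNA as set against -0.54, 0.49, -0.04 and 0.42 in heavy polysome RNA, with means of -0.78 ± 0.57 (SD, n = 4, limma adjusted p = 0.074) and 0.08 ± 0.48 (SD, n = 4). Total RNA arrays 2 and 4, both at slide position 1, were equal to 2 decimals and array 1 was near 0. Snrpb, the Sm B protein, had -0.28, 0.14, 0.50 and 0.47 in total RNA against 1.62, 0.44, -0.04 and 0.58 in heavy polysome RNA, whose mean of 0.65 ± 0.70 (SD, n = 4, limma adjusted p = 0.11) was led by array 1. Snrpn, an imprinted gene whose product can replace Sm B, had -0.51, -0.33, 0.30 and -0.13 and 0.54, 0.29, 0.76 and 0.29. It was above 0 on all heavy polysome arrays (limma adjusted p = 0.065), although in Cy3 it was well above background on 3 of those 4.

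Of the other 5 Sm genes, 3 shared a pattern over the arrays. Snrpe had log2 ratios of 0.88, 0.26, 0.39 and -0.46 in total RNA against -0.21, 0.73, -0.27 and 0.76 in heavy polysome RNA. Snrpd1 had 0.57, 0.44, 0.18 and -0.87 and -0.32, 0.66, -0.51 and 0.60, and Snrpg had 0.41, 0.21, 0.19 and -0.10 and -0.77, 0.52, -0.36 and 0.46. In heavy polysome RNA each of the 3 was below 0 on arrays 1 and 3 and above 0 on arrays 2 and 4, and in total RNA each was lowest on array 4. Arrays 1 and 3 of heavy polysome RNA and array 4 of total RNA lay at slide position 1. Snrpd3, Srsf7 and Hnrnpd, given above, had the same signs in heavy polysome RNA. They too were lowest on array 4 in total RNA, for Snrpd3 with array 2 equal to 2 decimals. The pattern was thus not particular to Snrpe, Snrpd1 and Snrpg, which were set together after their values were seen. Snrpd2 differed from them, with -0.52, 0.40, 0.10 and 0.46 in total RNA, where array 4 was highest, against -0.03, 0.20, 1.00 and 0.36 in heavy polysome RNA, where array 3 was highest. Snrpf had -0.06, 0.23, -0.23 and 0.03 in total RNA, against -0.41, 0.32, 0.0022 and 0.34 in heavy polysome RNA, with both signs in each. The median of the snRNP class in heavy polysome RNA was -0.25, 0.32, -0.04 and 0.36 on arrays 1 to 4, and that of all genes 0.05, 0.01, -0.01 and 0.0015.

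Of the snRNP proteins that belong to a single particle, none was called. Snrpa, the U1 A protein, had log2 ratios of 0.32, 0.24, 0.29 and 0.24 in total RNA against -0.25, 0.06, 0.50 and 0.13 in heavy polysome RNA. The total RNA values were the most even of the class, with a mean of 0.27 ± 0.04 (SD, n = 4, limma adjusted p = 0.19). Snrpc, the U1 C protein, had -0.73, -0.11, -0.25 and -0.04 and -0.65, -0.23, 0.35 and -0.09, and Snrnp70, the U1 70K protein, had -0.09, -0.35, -0.53 and 0.20 and -0.92, -0.27, -0.33 and -0.25. Snrnp70 was below 0 on all heavy polysome arrays, with a mean of -0.44 ± 0.32 (SD, n = 4, limma adjusted p = 0.094) and array 1 apart. Snrpb2, the U2 B″ protein, had 0.16, -0.18, -0.23 and 0.05 and 0.01, -0.02, -0.76 and -0.06, with heavy polysome array 3 apart. Snrpa1, the U2 A′ protein, had 0.08, 0.35, 0.16 and -1.11 and 0.63, 0.37, -0.01 and 0.46, with total RNA array 4 far below the other 3.

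None of the 11 U2 factor genes was called in limma either, and at an unadjusted p under 0.05 there were 2 in each fraction (18.2%, against 22.1% of all genes in total and 25.4% in heavy polysome RNA). Sf3b4, an SF3B subunit that contacts the pre-mRNA near the branch point, came nearest. Its log2 ratios were 0.89, 0.43, 0.60 and 0.28 in total RNA against 0.27, 0.30, -0.35 and 0.29 in heavy polysome RNA. It was above 0 on all total RNA arrays, with a mean of 0.55 ± 0.26 (SD, n = 4, limma adjusted p = 0.053), and 10 of 22 alternative settings called it. Sf3b1, the SF3B subunit that clamps the branch point helix, had 0.13, -0.18, -0.17 and -0.14 in total RNA as set against -0.28, -0.38, -0.32 and -0.25 in heavy polysome RNA. The heavy polysome arrays were all below 0 within a narrow range, with a mean of -0.31 ± 0.06 (SD, n = 4, limma adjusted p = 0.054), and all below the total RNA arrays. Sf3a3, the zinc finger subunit of SF3A, had 0.10, -0.07, -0.22 and 0.09 and -0.41, -0.14, -0.47 and -0.28, with a heavy polysome mean of -0.33 ± 0.15 (SD, n = 4, limma adjusted p = 0.059).

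U2af2, the large U2AF subunit, which binds the polypyrimidine tract, had log2 ratios of -0.43, -0.23, -0.54 and -0.04 in total RNA against 0.31, -0.16, -0.09 and -0.02 in heavy polysome RNA. All total RNA arrays were below 0, with a mean of -0.31 ± 0.22 (SD, n = 4, limma adjusted p = 0.14). U2af1, the small subunit, which reads the AG at the intron end, had -0.35, 0.09, -0.94 and 0.39 and -1.53, -0.09, -0.60 and 0.04, and 2 arrays of each sign in total RNA. Sf3b2 had -0.69, -0.17, -0.10 and -0.17 and 0.40, -0.44, 0.48 and -0.30, with total RNA array 1 apart. Sf3a1, the SF3A subunit that reaches the U1 snRNP, had 0.01, 0.14, 0.09 and 0.49 and 0.08, -0.19, 0.50 and 0.14. Sf3b3 had -0.71, -0.02, -0.05 and 0.69 and 0.48, -0.18, 0.61 and -0.0035, and Sf3b5 had -0.41, 0.22, -0.20 and -0.18 and 0.45, 0.0024, 0.16 and 0.13. For U2af1, Sf3a1, Sf3b3 and Sf3b5 the SD in total RNA exceeded the mean.

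Between the classes the middle values hardly differed. The median log2 ratio in total RNA was -0.0049 for SR proteins, 0.02 for hnRNPs, -0.01 for snRNP proteins and -0.09 for U2 factors, against -0.04 for all genes. In heavy polysome RNA it was 0.02, -0.07, 0.11 and 0.03, against 0.02 for all genes. Single arrays gave class medians between -0.35 and 0.26 in total RNA, while in heavy polysome RNA they lay between -0.25 and 0.36, a wider range than that between the classes. On 6 of 8 arrays the members spread more widely than all genes, which was not tested. The SD over the 59 genes was 0.54, 0.32, 0.41 and 0.45 on total RNA arrays 1 to 4, against 0.40, 0.28, 0.32 and 0.47 over all genes. On heavy polysome arrays 1 to 4 it was 0.71, 0.36, 0.44 and 0.36, against 0.52, 0.31, 0.49 and 0.32.

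**Figure D3:**
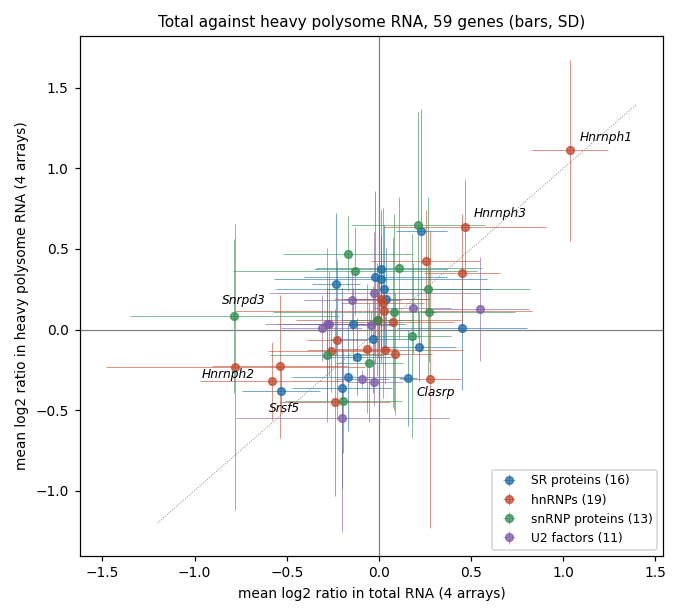
Mean log2 ratio in total RNA (horizontal axis) and in heavy polysome RNA (vertical axis) of the 59 genes, coloured by class, with the SD of 4 arrays as bars and equality as a dotted line. Hnrnph1 lies alone at the upper right, Srsf5 and Hnrnph2 at the lower left, and Snrpd3 combines the lowest total RNA mean with a heavy polysome mean near 0.

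The difference between both log2 ratios, heavy polysome minus total RNA, asks whether the siRNA altered how much of an mRNA sat on heavy polysomes. No member was called in limma, nor was any of the 14457 genes, and at an unadjusted p under 0.05 there were 5 members (8.47%) against 5.22% of all genes. These were Snrpd3, Snrpn, Srsf1, Sf3a3 and Clasrp. Snrpd3 differed by 0.87 (95% interval 0.17 to 1.56, limma adjusted p = 0.85), Snrpn by 0.64 (0.20 to 1.08) and Srsf1 by 0.52 (0.05 to 0.98). On the other side Clasrp differed by -0.46 (-0.81 to -0.11) and Sf3a3 by -0.30 (-0.60 to -0.01), with the same limma adjusted p for all 5. The array values of the fractions did not overlap for 3 members (5.08%, against 3.61% of all genes), Srsf1, with heavy polysome RNA above (2.39% of all genes), and Clasrp and Sf3b1, with it below (1.22%). For the genes called in single fractions the difference was 0.07 (-0.50 to 0.65) for Hnrnph1, 0.17 (-0.35 to 0.70) for Hnrnph3 and 0.15 (-0.17 to 0.47) for Srsf5. These intervals leave room for differences of either sign. The widest differences beyond those named were 0.54 for Hnrnpa0 and -0.59 for Hnrnpl, each within the spread between arrays (limma adjusted p = 0.87 and 0.85). The median difference was 0.09 over the members and 0.06 over all genes.

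Within 1 siRNA, the channel values compare heavy polysome with total RNA. They are log2 signals after quantile normalisation of the average signal between arrays. Each is made from that average and the loess-normalised ratio, so it also depends on the channel of the other siRNA. Since each slide held 1 fraction, slide and fraction cannot be told apart. In control siRNA cells the median of heavy polysome minus total RNA was 0.15 over the members and -0.02 over all genes, with 0.25 for hnRNPs, 0.07 for SR proteins, -0.01 for snRNP proteins and -0.11 for U2 factors. In Eif4g3 siRNA cells the members' median was 0.22, against 0.02 over all genes. No member was called in limma in either channel, against 340 of all genes (2.35%) in control and 21 (0.145%) in Eif4g3 siRNA cells. Of those, 338 (2.34%) and 21 were lower in heavy polysome RNA. At an unadjusted p under 0.05 there were 7 members in control (11.9%, against 12.5%) and 11 in Eif4g3 siRNA cells (18.6%, against 12.3%).

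At the high end, U2af2 had control siRNA signals of 7.35, 7.96, 7.94 and 7.03 in total RNA, against 8.30, 8.28, 8.62 and 8.71 in heavy polysome RNA. The groups did not overlap, and the difference was 0.91 (95% interval 0.38 to 1.44, limma adjusted p = 0.094), and 1.23 (0.71 to 1.75, limma adjusted p = 0.082) in Eif4g3 siRNA cells. Hnrnpdl, a relative of Hnrnpd, had 11.03, 11.28, 11.10 and 11.37 and 11.61, 11.84, 11.72 and 11.99 in control siRNA cells, again without overlap, and differences of 0.60 and 0.77 (limma adjusted p = 0.087 and 0.26). Hnrnpa0 had 8.87, 9.08, 11.03 and 11.39 and 11.78, 11.22, 11.09 and 11.66, and its difference of 1.34 (limma adjusted p = 0.34) came with total RNA arrays 1 and 2 far below the other 6. Srsf2 and Srsf5 differed by 1.01 and 0.96 in control and by 1.35 and 1.11 in Eif4g3 siRNA cells, with overlapping control values. The Srsf2 value rested on total RNA array 4, without which it was 0.36 in control and 0.77 in Eif4g3 siRNA cells, and without total RNA array 1 the control value of Srsf5 was 1.44. At the low end, Snrpg had 14.10, 14.45, 14.21 and 14.51 in total RNA, against 14.22, 13.19, 13.32 and 13.13 in heavy polysome RNA of control siRNA cells, where array 1 overlapped total RNA. The difference was -0.85 (-1.41 to -0.29, limma adjusted p = 0.14), and -1.07 (-1.52 to -0.62, limma adjusted p = 0.082) in Eif4g3 siRNA cells, where the groups did not overlap. Snrpe and Snrpn followed in control siRNA cells with -0.66 and -0.51, of which Snrpe was -0.10 without total RNA array 2. The other members at either end of their class in control siRNA cells follow. Among SR proteins the lowest differences were -0.21 for Srsf7, -0.15 for Srek1 and -0.13 for Clasrp, and Srsf6 was next after Srsf2 and Srsf5 at the high end with 0.37. Among hnRNPs they were -0.32 for Hnrnpab, -0.30 for Hnrnph3 and -0.09 for Hnrnph1, and the third highest was 0.59 for Hnrnpr. The highest snRNP differences were 0.44 for Snrpb2, 0.39 for Snrnp70 and 0.29 for Snrpd1, and without total RNA array 2 Snrnp70 was at -0.01. Among U2 factors Sf3b2 and U2af1 followed U2af2 with 0.49 and 0.42, and the lowest were -0.30 for U2af1l4, -0.29 for Sf3b4 and -0.23 for Sf3a2, of which Sf3a2 was well above background in Cy3 on only 2 of 4 heavy polysome arrays. Without total RNA array 2 the values were 0.21 for Sf3b2, 0.05 for U2af1, -0.0034 for Sf3b4 and -0.10 for Sf3a2, and that of Srsf7 turned to 0.08. Of the 24 members at the ends of their classes, 15 moved by over 1.5 times or changed sign when 1 of the 8 arrays was left out, 8 of them without total RNA array 2. Clasrp, Hnrnph1, Srsf7 and Snrnp70 changed sign. Of all members, 4 did not overlap between fractions in each channel (6.78%), against 9.91% of all genes in control and 8.07% in Eif4g3 siRNA cells.

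**Figure D4:**
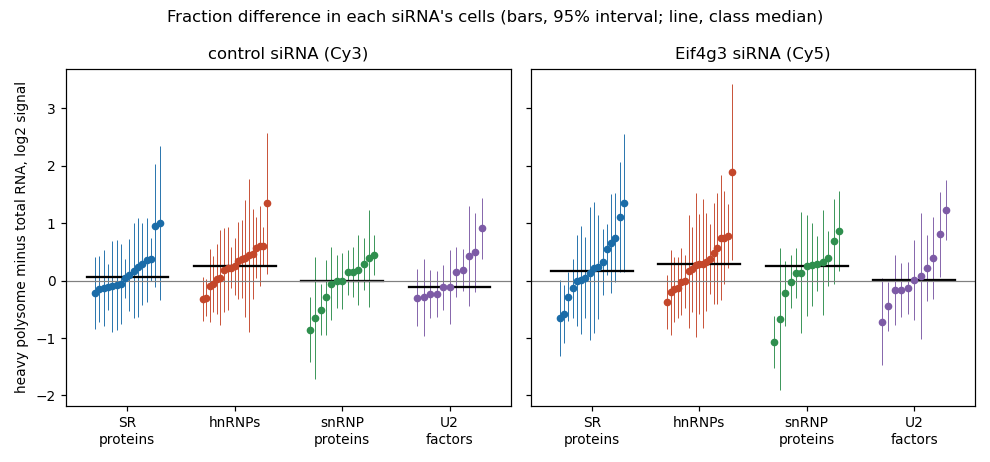
Log2 signal in heavy polysome minus total RNA (vertical axis) of the 59 genes by class in control siRNA cells (left) and Eif4g3 siRNA cells (right), with 95% intervals from limma (bars) and class medians (lines). Hnrnpa0 is highest and Snrpg lowest in both panels.

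Probes of the same gene often disagreed. Of 34 genes with more than 1 tested probe, 20 had means of both signs in total RNA, 20 in heavy polysome RNA and 25 in either. Those with both signs in both fractions included Srsf2, Srsf4, Srsf11, Tra2b, Srek1, Sfswap, Hnrnpa1, Hnrnpa2b1, Hnrnpab, Hnrnpk, Hnrnpll, Snrnp70, Snrpa, Snrpb2 and Sf3a1. Srsf7, Hnrnpdl, Snrpf, Sf3b3 and U2af1 had both signs in total RNA only. Scaf11, Srsf6, Hnrnpa3, Snrpd3 and U2af2 had both signs in heavy polysome RNA only. Sfswap, a regulator that shapes the splicing of its own transcript, ranged over its 4 probes from -0.21 to 0.63 in total RNA. Snrpd3 ranged over its 3 probes from -1.21 to -0.01 in total RNA, all on 1 side, but from -0.38 to 0.08 in heavy polysome RNA. For Hnrnpa0, Hnrnpc, Hnrnpf, Hnrnpu, Hnrnpul1, Snrpn, Srsf1, Sf3b1 and Sugp2 all probes had the same sign in each fraction. When every probe was tested on its own, 7 member probes were called in total RNA, those of Hnrnph1 and Srsf5 and single probes of Sfswap, U2af2, Hnrnpa0, Hnrnpa3 and Snrpd3, and 3 in heavy polysome RNA, of Hnrnph1, Hnrnph3 and Srsf5. The share over all probes is not given here, so these counts, out of 115 tested member probes, cannot be read as a trait of the members. The values of a gene with several probes hold for the transcripts its probe reads.

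Other components of the splicing machinery, from a list of 117 genes of which 2 are also members, were also measured. Of 114 tested, 8 were called in total RNA in limma, 2 higher and 6 lower, and 18 in heavy polysome RNA, 9 higher and 9 lower. These are 7.02% and 15.8% of the list, against 4.38% and 8.92% of all genes. The higher ones in total RNA were Snrnp27, a tri-snRNP protein, with a mean of 1.104 ± 0.11 (SD, n = 4, limma adjusted p = 0.012), and Tia1, which helps U1 bind weak 5′ splice sites, with 0.69 ± 0.23 (SD, n = 4, limma adjusted p = 0.017). Both were also higher in heavy polysome RNA, at 1.06 ± 0.51 and 0.78 ± 0.24 (SD, n = 4 each, limma adjusted p = 0.0064 and 0.006). Lower in both were the U5 factors Prpf8 and Prpf6 and the exon junction protein Acin1, with total RNA means of -0.61, -0.64 and -0.88 and heavy polysome means of -0.45, -0.49 and -0.87. Eftud2, Prpf19 and Raly were lower in total RNA, and Crnkl1, Dhx16, Ewsr1, Plrg1, Prpf3 and Xab2 in heavy polysome RNA. Rbm17, Qk, Sf1, Lsm6, Khdrbs3, Ppil1 and Lsm2 were higher in heavy polysome RNA, with means from 0.96 for Qk to 0.37 for Lsm2. No gene of the list was called for the difference between fractions, where the median was 0.09. The list was drawn up with earlier results of these data known, so its shares cannot be read as a result about splicing genes. Neither the difference between the list and all genes nor that between the list and the members was tested.

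The number of members called differed between the arrays at the 2 slide positions. At position 3, with 2 arrays a fraction, 20 of 59 members were called in total RNA in limma and 15 in heavy polysome RNA. Over all genes 3273 and 2993 were called there. At position 1 no member and no gene was called in either fraction. With position as a block over all 8 arrays 6 members passed in total RNA, among 970 of 14457 genes. In heavy polysome RNA 4 members passed, and the count over all genes is not given here. The direction of Hnrnph1, Hnrnph3 and Srsf5 was the same at both positions in both fractions. With the slide as a random block, whose estimated correlation was -0.27, 7 and 11 members were called, among 1473 and 2588 genes. A negative correlation lowers the standard error of a fraction's mean where arrays share a slide, so these higher counts are no stronger support. Whether members were called more often than all genes in any of these settings was not tested, so the counts cannot be read as a trait of the members. What differs between the positions was not tested, and position cannot be told apart from other differences between these arrays.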

How the data were processed

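Per the file headers, the deposited scanner tables hold spot and background intensity of both channels, made with Agilent Feature Extraction 10.7.3.1 (protocol GE2_107_Sep09) on 7 arrays and 10.5.1.1 (GE2_105_Dec08) on total RNA array 2. Values of the deposited series matrix are log2 ratios, Cy5 over Cy3, of which array medians ran from -0.21 to 0.31, and 99.79% to 99.87% of the values of each array lay within 0.01 of the log2 ratio of the authors' processed signals. It served as an alternative.

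Mean intensity was corrected for median local background with normexp (offset 50), and log2 ratios were normalised within arrays by loess (span 0.3). Control spots and the 131 to 241 spots an array marked as outliers had no weight. No spot was saturated. Spots of a probe were averaged, and the probe of highest mean signal stood for its gene. Genes were tested if, in either fraction, 3 or more of 4 arrays marked that probe as well above background in Cy3 or Cy5. RefSeq records of GRCm38.p6, used for names and start regions only, matched 23374 of 41174 probes by accession, 6733 by symbol and 2919 by synonym. limma 3.58.1 in R 4.3.3 (lmFit, eBayes, two-sided) fitted 1 mean per fraction over all 8 arrays, with Benjamini-Hochberg adjustment over 14457 genes and a threshold of 0.05. SD, n and p refer to arrays, and p measures the spread between these arrays, which may be technical. The number of arrays limits the precision. Channels were compared between fractions after Aquantile. The fits were tested on simulated data. The genes with values on every array are the called ones, the 2 highest and 2 lowest of each class in each fraction and in the difference, and a list by role. The 3 highest and lowest of each class by fraction in control siRNA cells are given as differences. Members, lists and tests were chosen with earlier results of these data known. Figures used Python 3.11.15 and matplotlib 3.10.9.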

Additional observations from a re-analysis of the deposited data

Results flagged for a closer look

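Over the 118 pairs of a tested member and a fraction, 10 (8.47%) had an array that stood apart from the other 3 by Dixon's criterion. The criterion marks about 1 in 20 of independent normal values, whereas these pairs share the same arrays. The share over all genes was not computed, so the count cannot be read as a trait of the members. Of the 10, 3 fell on total RNA array 1, 2 on total RNA array 4, 3 on heavy polysome array 1 and 2 on heavy polysome array 3, and none on the remaining arrays.

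On total RNA array 1, Hnrnph2 had a log2 ratio of 0.0014 where the others lay from -0.80 to -0.76. Sf3b1 had 0.13 there against -0.18 to -0.14, and Sf3b2 had -0.69 against -0.17 to -0.10. On total RNA array 4, Hnrnpu had 0.21 against -0.40 to -0.37, and Sf3a2, a subunit of SF3A, had -0.23 against 0.01 to 0.04. On heavy polysome array 1, Clasrp had -0.74 against -0.19 to -0.10. Scaf11, an SR-like protein that binds RNA polymerase II, had -0.80 there against -0.15 to -0.12, and Snrnp70 had -0.92 against -0.33 to -0.25. On heavy polysome array 3, Sf3b4 had -0.35 against 0.27 to 0.30, and Snrpb2 had -0.76 against -0.06 to 0.01.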

How the results depend on the processing

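The counts of called members and genes depended on the setting, while the sign of Hnrnph1 and Srsf5 was kept in both fractions under all 22 alternatives. The reported counts were 2 members and 633 genes in total RNA, against 3 and 1289 in heavy polysome RNA. Median centring in place of loess called 0 members and 0 genes in both. The processed signals called 4 members and 1449 genes in total RNA, against 5 and 2053 in heavy polysome RNA, and the deposited series matrix 4 and 1449, and 5 and 2050. A normexp offset of 10 gave 4 members in total RNA, the mean of all probes of a gene 5, the stricter background filter 5 and every probe on its own 7. Where no count over all genes stands beside it, a count of members cannot be read as a trait of the members. Each fraction fitted alone gave 0 members and 382 genes in heavy polysome RNA. Counting heavy polysome arrays 2 and 4 as 1 replicate left 298 genes in total RNA, against 1 member and 434 genes in heavy polysome RNA. The slide as a random block gave 7 members and 1473 genes, and 11 and 2588. Of the settings added after seeing the data, array position as a block gave 6 members and 970 genes in total RNA, position 1 alone 0 and 0 in both fractions, and position 3 alone 20 and 3273, and 15 and 2993. There Snrpg was called in heavy polysome RNA at 0.49, against -0.04 over all arrays; the cause was not tested. Leaving out 1 array in turn gave 0 to 5 members and 46 to 1327 genes in total RNA, against 1 to 4 and 337 to 1536 in heavy polysome RNA. Total RNA counts of members were 0 without total RNA array 2, 3 or 4, 1 without array 1, 5 without heavy polysome array 1 and 4 without heavy polysome array 3, and the heavy polysome count was 1 if total RNA array 2, heavy polysome array 2 or heavy polysome array 4 was left out.

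For the difference between fractions 0 members and 0 genes were called under all settings. Between fractions in Eif4g3 siRNA cells 0 members and 21 genes were called. Median scaling without loess gave 7 and 1527, an offset of 10 gave 1 and 70, the slide as a random block 2 and 80, the mean of all probes 43 genes, the stricter filter 45, no filter 13, quantile normalisation 40, and either position alone 0. In control siRNA cells 340 genes became 0 with median scaling and within either position, and 76 to 338 without 1 array, where 0 to 1 members were called, and 3 to 82 genes in Eif4g3 siRNA cells. The numbers of the replicates did not pair the arrays: deviations of same-numbered arrays correlated at -0.02, 0.17, -0.11 and -0.30. With the replicate block 1 member and 210 genes passed in total RNA, against 1 and 585 in heavy polysome RNA, and 69 genes between fractions in control siRNA cells. The class medians moved beyond the spread between arrays with median centring in total RNA (-0.91 for SR proteins, -0.91 for hnRNPs, -0.86 for snRNP proteins and -0.95 for U2 factors), at position 1 for snRNP proteins in heavy polysome RNA (-0.21) and at position 3 for U2 factors in total RNA (-0.31).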

Other observations

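Over the 59 members, total RNA array 3 correlated with heavy polysome arrays 2 and 4, which lay at the same slide position, at 0.602 and 0.661, and total RNA array 1, also at that position, at 0.612 and 0.561. Total RNA array 2 lay at the other position and correlated with them at 0.500 and 0.536, and total RNA array 4 at -0.09 and 0.04. Total RNA array 4 correlated with heavy polysome array 3, at its own position, at 0.367, and heavy polysome array 1 with heavy polysome array 3 at 0.116. These values are over genes that share arrays, labelling and normalisation, and genes are not independent replicates.

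On mm8, 10 members had their probe on chromosome 7, and no other chromosome held more than 6. These were Clasrp, Hnrnpl, Hnrnpul1, Snrnp70, Snrpa, Snrpa1, Snrpd2, Snrpn, U2af1l4 and U2af2. None of the 10 was called in either fraction in limma, and at an unadjusted p under 0.05 there were 3 in total RNA, Hnrnpul1, Snrpa and U2af2, and 4 in heavy polysome RNA, Clasrp, Hnrnpul1, Snrnp70 and Snrpn (30% and 40%, against 22.1% and 25.4% of all genes). The chromosome was singled out after the values were seen, and no difference was tested. Their means in total RNA ran from -0.31 for U2af2 to 0.45 for Hnrnpul1.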
